A study of Mus musculus with 16 samples.

Results

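Grik4, Nectin3, Cdh24, Cpne4, Dkk3, Nnat and St18 are 7 genes listed as markers of pyramidal neurons of hippocampal field CA3, and their expression was followed across dissected CA1, CA3 and dentate gyrus (DG) tissue and across training. The list was chosen with earlier results of these data known, and its rows were taken by gene symbol. All 7 were found among the 24968 genes with a unique symbol in each library. They passed the filter on low values in every comparison. The data are bulk RNA-seq libraries of the dorsal hippocampus of ArcCreERT2::eYFPflx mice aged 3 to 4 months, in which the Arc promoter drives a tamoxifen-dependent Cre recombinase. No cells were sorted, so each library represents all cells of its dissected tissue. Trained mice (n = 3) had learned active place avoidance (APA), a task in which an unmarked sector of a rotating arena delivers a shock, and untrained mice (n = 3) explored the same rotating arena with the shock off. Both groups received a retention test without shock, and tissue was taken 60 min after it, pooled per animal and subregion. There were 3 trained libraries in each of the 3 subregions, and 3, 2 and 2 untrained libraries in CA1, CA3 and DG, giving 16 libraries in all.

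CA3 pyramidal neurons receive mossy fibre input from dentate granule cells, excite one another through recurrent collaterals, and project to CA1 through the Schaffer collaterals. Grik4 encodes the high-affinity kainate receptor subunit GluK4, which acts at mossy fibre synapses. Nectin3 and Cdh24 encode adhesion molecules: nectin-3 is found at the puncta adherentia that flank mossy fibre synapses, and cadherin-24 is a type II cadherin. Cpne4 encodes a calcium-dependent phospholipid-binding copine, Dkk3 a secreted protein of the Dickkopf family, Nnat the small imprinted membrane proteolipid neuronatin, and St18 a zinc finger transcription factor of the MYT family.

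In the mouse genome build GRCm38, the annotation used here (GENCODE) places Grik4 on chromosome 9 (42518135 to 42944493, minus strand) and Cpne4 on the same chromosome (104547286 to 105034544, plus strand). Nectin3 lies on chromosome 16 (46387706 to 46498525, minus strand), Dkk3 on chromosome 7 (112116017 to 112159057, minus strand) and St18 on chromosome 1 (6487231 to 6860940, plus strand). Cdh24 lies on chromosome 14 (54631231 to 54641364, minus strand) and overlaps the protein-coding Gm17606 on the other strand. Nnat lies on chromosome 2 (157560078 to 157562522, plus strand) within Blcap, which is read from the other strand. These overlaps are of whole gene spans, and overlap of exons was not examined. Whether the reads were counted by strand is not stated in the sources used here. Reads from any shared exon bases could therefore belong to either gene.

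The sequences just upstream of Grik4, Nectin3 and Cdh24 are shown because these genes had the 3 largest differences with training in CA1. They come from RefSeq (GRCm38.p6), which had an upstream window for 5 of the 7 genes (Grik4, Nectin3, Cdh24, Cpne4 and Nnat). The stretches are chr9:42944494-42944621 for Grik4, chr16:46496968-46497217 for Nectin3 and chr14:54641365-54641614 for Cdh24, all written 5′ to 3′ along the minus strand and ending toward the gene. The Nectin3 stretch precedes the RefSeq start and lies inside the gene as GENCODE draws it, since one GENCODE transcript begins farther upstream. For Grik4 only the 128 bases that lie outside annotated exons are given, and for the others the full 250 bases. Capitals mark the GC box (GGGCGG, read on both strands) and, in Cdh24, an E-box (CAGATG, read on both strands), none of which overlap.
Grik4: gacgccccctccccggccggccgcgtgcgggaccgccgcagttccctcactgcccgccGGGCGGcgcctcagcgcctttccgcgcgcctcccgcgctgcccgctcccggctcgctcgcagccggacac
Nectin3: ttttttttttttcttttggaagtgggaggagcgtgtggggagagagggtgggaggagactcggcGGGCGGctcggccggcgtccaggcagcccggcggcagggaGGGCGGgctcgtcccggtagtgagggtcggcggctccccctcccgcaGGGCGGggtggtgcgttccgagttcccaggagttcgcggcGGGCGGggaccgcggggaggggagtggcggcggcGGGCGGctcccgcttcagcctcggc
Cdh24: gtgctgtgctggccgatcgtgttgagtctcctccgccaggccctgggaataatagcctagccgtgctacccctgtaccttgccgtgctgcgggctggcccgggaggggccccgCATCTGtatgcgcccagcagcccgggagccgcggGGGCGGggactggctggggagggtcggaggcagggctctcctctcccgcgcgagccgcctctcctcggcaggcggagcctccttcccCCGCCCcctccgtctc
Nectin3 held 5 GC boxes in its window and Cdh24 held 2, and at least 1 GC box was present in 32.7% of the 32851 RefSeq windows of this length. The Grik4 stretch held 1 GC box, which 13.8% of the windows had in the same stretch. The E-box occurred once, in Cdh24, against 14.4% of all windows. Neither a TATA box (TATAAA, both strands, 12.4% of windows) nor a cAMP response element (TGACGTCA, 1.5%) was found in these 3 stretches. The GC content was 73.2% in Nectin3 and 72.8% in Cdh24, against a median of 52.4%, and CpG dinucleotides numbered 30 and 22, against a median of 6. These matches describe letters in a window, and no binding or methylation was measured.

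The deposited values are estimated counts that had already been normalized between libraries. They are not whole numbers and sum to between 7606553 and 7984144 in each library, so the read depth behind a value is unknown. The number of genes listed at 0 ranged from 3124 to 5944 in 9 libraries and from 7567 to 9758 in the other 7, namely all 3 trained libraries of CA1, replicates 1 and 2 of trained CA3, and the untrained libraries of DG. Sex-linked transcripts also followed training, although the study assigned mice of both sexes to both groups. Xist ranged from 7601 to 19592 among trained libraries and from 25.5 to 52.4 in 6 of the 7 untrained ones. Ddx3y, on the Y chromosome, ran from 448 to 553 in the same 6 libraries and from 1.66 to 101 in 8 of the 9 trained ones. Of the libraries with an Xist value of at least 1000, 5 also had a Ddx3y value of at least 50. Untrained CA3 replicate 1 had an Xist value of 10587 (26.1 and 25.5 in the same-numbered CA1 and DG libraries) with Ddx3y at 201, Uty at 144 and Kdm5d at 173, and trained DG replicate 3 had the lowest trained Xist value, 7601, with Ddx3y at 255, Uty at 152 and Kdm5d at 156. Ddx3y was lower, at 70.9, 101 and 92.9, in trained CA1 replicates 1 and 3 and trained CA3 replicate 3, and from 1.66 to 12.9 in the other trained libraries. The differences of the 7 genes were therefore also fitted without the first 2 and without all 5 of these libraries. Training and the sex-linked transcripts cannot be told apart within any of the 3 subregions, where every trained library had more Xist and less Ddx3y than every untrained one.

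Cell markers were compared with the dissection labels before the 7 genes were read. Prox1, the transcription factor that defines dentate granule cells, had values of 3052 to 3861 in CA1, 2690 to 4786 in CA3 and 3292 to 4183 in DG, so its ranges overlapped in the 3 subregions. The summed value of 10 dentate granule cell markers ranged from 8438 to 10416 in CA1, from 7611 to 12860 in CA3 and from 9119 to 11595 in DG. No marker of that list was called between CA3 and DG, and their median log2 difference was -0.05, beside 0.00 for all genes. The dentate marker sums of the libraries labelled CA3 thus spanned those of the libraries labelled DG. CA1 pyramidal markers had a median log2 difference of -0.94 between CA3 and CA1 (beside 0.01 for all genes), with a negative difference in all 8 and 0 past the test. Their sums were 4007 to 6170 in untrained CA1, whereas those of trained CA1, 2222 to 2639, lay within the 1873 to 2650 of trained DG. In whole tissue, fewer cells of a type and less RNA per cell cannot be told apart.

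To ask whether the 7 genes distinguished CA3 from its neighbours, the subregions were compared in one limma fit of log2(value + 2) with the animal as a block. None of the 7 differed between CA3 and CA1 at an adjusted p under 0.05, where 0.334% of 14670 genes did. None differed between CA3 and DG, where 0% of genes were called (660 had an unadjusted p under 0.05), nor between CA1 and DG, where 1.8% were called. The median log2 difference of the 7 genes was 0.34 for CA3 minus CA1 and 0.05 for CA3 minus DG, beside 0.01 and 0.00 for all genes. As no gene of all those tested was called between CA3 and DG, the label of CA3 identity could not be checked against DG here, and the genes are referred to by name.

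Grik4, the kainate receptor subunit, averaged 494 ± 126 (SD, n = 5) in CA3, 450 ± 54.9 (SD, n = 5) in DG and 356 ± 76.2 (SD, n = 6) in CA1. Its log2 difference was 0.42 between CA3 and CA1 (standard error 0.115, limma adjusted p = 0.173) and 0.10 between CA3 and DG (95% confidence interval -0.17 to 0.36, limma adjusted p = 0.994). CA3 and DG, neighbours in this order, did not differ beyond their spread. Without untrained CA3 replicate 1 the CA3 to CA1 difference of Grik4 was 0.53 and passed the test (limma adjusted p = 0.0408).

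Cpne4, the copine, had the same order, with means of 1436 ± 155 in CA3 (SD, n = 5), 1332 ± 130 in DG (SD, n = 5) and 1098 ± 160 in CA1 (SD, n = 6). On the log2 scale CA3 exceeded CA1 by 0.39 (limma adjusted p = 0.192, standard error 0.108). Grik4 and Cpne4 shared a feature within training groups that the pooled ranges hide, chosen here after the values were seen. Every CA3 library lay above every CA1 library among untrained mice and again among trained mice for these 2 of the 7 genes, which held for 1.22% of all genes. Among untrained libraries alone it held for Grik4, Nectin3, Cpne4 and St18 (4 of 7, beside 12.4% of all genes). Against DG no gene of the 7 met it in both training groups, and 0.961% of all genes did.

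Nectin3, the adhesion molecule, averaged 472 ± 126 in CA3 (SD, n = 5), 467 ± 88.7 in DG (SD, n = 5) and 358 ± 114 in CA1 (SD, n = 6). The CA3 and DG means were nearly equal (log2 difference -0.01, 95% confidence interval -0.30 to 0.27), and the difference from CA1 was 0.37 (limma adjusted p = 0.27). Cdh24, the type II cadherin, had the largest positive difference of the 7 between CA3 and DG, 0.39 on the log2 scale (95% confidence interval 0.06 to 0.72, limma adjusted p = 0.994). Its means were 92.1 ± 36.4 in CA3 (SD, n = 5), 75.8 ± 30.5 in CA1 (SD, n = 6) and 70.1 ± 14.6 in DG (SD, n = 5), and the values of the 3 subregions overlapped.

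Dkk3 was the only one of the 7 whose mean was lowest in CA3, with 2013 ± 572 there (SD, n = 5), 2139 ± 234 in CA1 (SD, n = 6) and 2232 ± 300 in DG (SD, n = 5). Its difference between CA3 and CA1 was -0.12 (limma adjusted p = 0.81) and turned to 0.01 without untrained CA3 replicate 1, which held the lowest Dkk3 value of all libraries (1220). Nnat varied most, from 232 to 746, and its means of 467 ± 233 in CA3 (SD, n = 5), 458 ± 150 in DG (SD, n = 5) and 317 ± 75.6 in CA1 (SD, n = 6) did not differ beyond that spread (limma adjusted p = 0.822 for CA3 minus CA1). St18 varied least, with a ratio of 1.39 between the highest and lowest library. Its means were 738 ± 75.5 in CA3 (SD, n = 5), 707 ± 58.1 in DG (SD, n = 5) and 675 ± 68.7 in CA1 (SD, n = 6).

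The subregion differences were also fitted without untrained CA3 replicate 1. The CA3 minus CA1 differences were then 0.43 for Nectin3, 0.29 for Cdh24, 0.41 for Cpne4, 0.47 for Nnat and 0.11 for St18, none of which passed the test (limma adjusted p of 0.257 to 0.799). The CA3 minus DG differences were 0.22 for Grik4, 0.05 for Nectin3, 0.45 for Cdh24, 0.13 for Cpne4 and 0.04 for Nnat (limma adjusted p = 0.999 for each), so those of Nectin3 and Nnat changed sign, as did that of Dkk3, to 0.001 (limma adjusted p = 1). With trained DG replicate 3 left out as well, they were 0.13 for Grik4, -0.11 for Nectin3, 0.31 for Cdh24, 0.02 for Cpne4 and 0.12 for Nnat, again with none called. Nectin3 was then lower in CA1 than in DG by 0.50 (difference -0.50, limma adjusted p = 0.0233), the one call among the 7 for that pair. Without all 5 libraries that held both kinds of transcript, Grik4 and Nectin3 passed the test for CA3 minus CA1, at 0.63 and 0.56 (limma adjusted p = 0.0378 and 0.0486), and 0 of 7 did for CA3 minus DG. Grik4, Nectin3 and Cpne4 were then lower in CA1 than in DG, with differences of -0.48, -0.62 and -0.47 (limma adjusted p = 0.0237, 0.00505 and 0.0357).

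**Figure D1:**
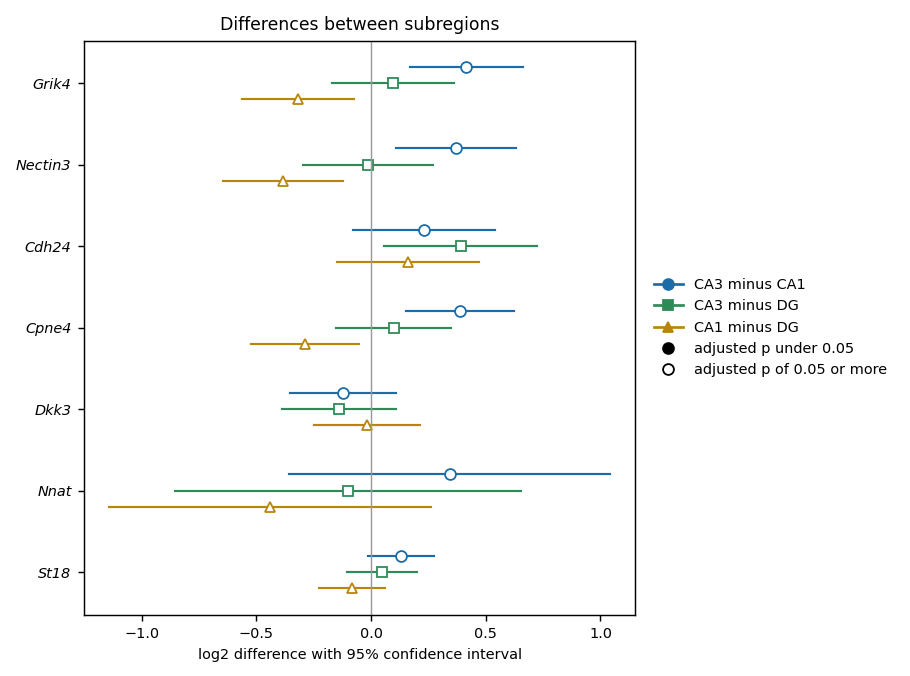
Points are log2 differences between subregions for each of the 7 genes on log2(value + 2), with bars for the 95% confidence interval, in the limma fit of 16 libraries with the animal as a block. All points are open because 0 of the 7 genes passed an adjusted p of 0.05. The CA3 minus CA1 intervals of Grik4, Nectin3 and Cpne4 lie right of 0, and their CA3 minus DG intervals cross it.

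The highest value of each of the 7 genes came from a CA3 library, where 26.7% of all genes had theirs, and 5 of the 7 peaked in trained CA3 replicate 3 (6.56% of all genes). The lowest value came from an untrained CA1 library for Grik4, Nectin3, Cdh24, Cpne4 and St18 (5 of 7, beside 19.2% of all genes). Trained CA3 replicate 3 was also the trained CA3 library with few genes at 0 (3171, against 8691 and 8009), and held Xist beside Y-linked transcripts. The part of either in these levels was not tested.

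**Figure D2:**
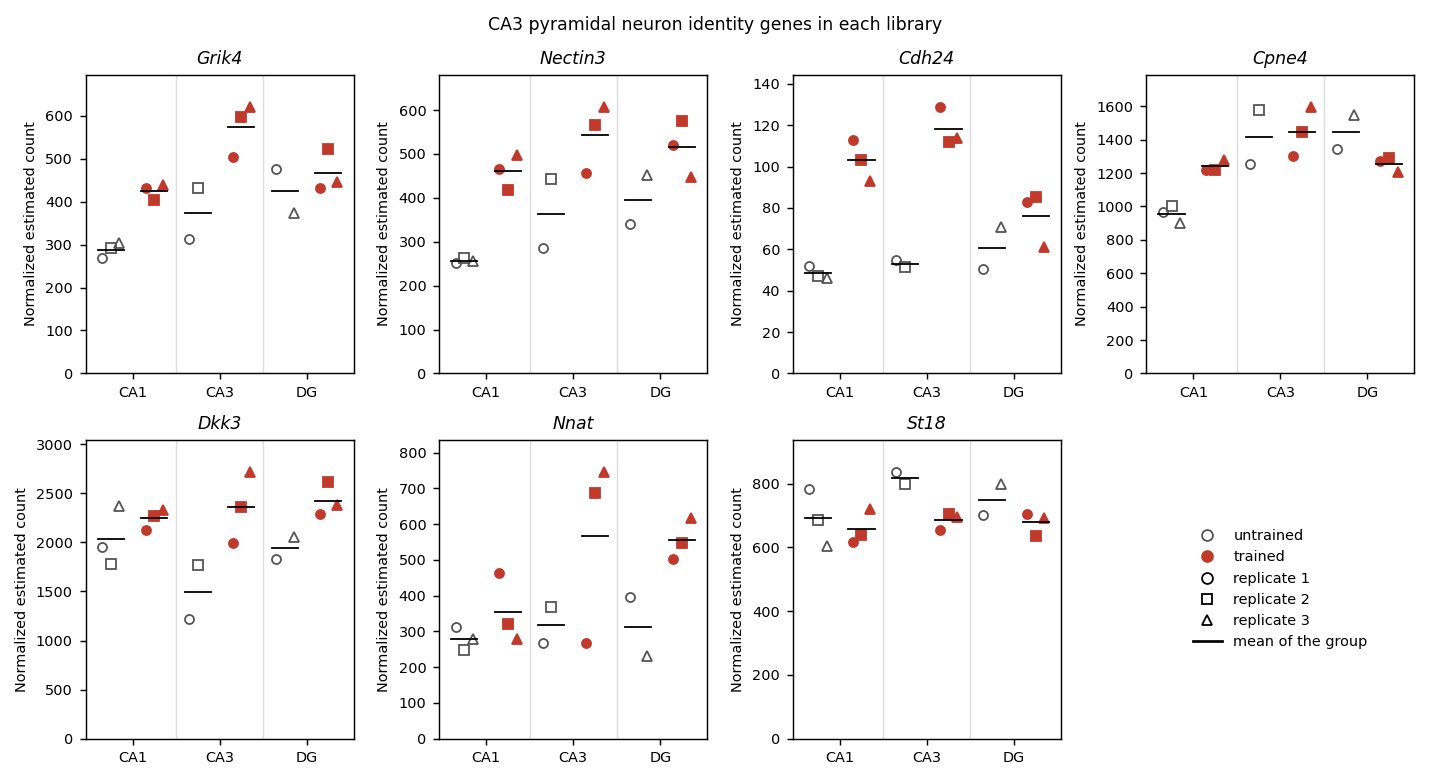
Each panel plots one gene, with the normalized estimated count on the vertical axis from 0 and the 3 subregions on the horizontal axis. Open grey symbols are untrained and filled red symbols trained libraries, circles, squares and triangles are replicates 1, 2 and 3, and black lines are group means. The 3 untrained CA1 libraries sit together at the bottom for Grik4, Nectin3 and Cpne4, and trained CA3 libraries reach the top of 6 of the 7 panels.

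Training was compared within each subregion, as in the study. In CA1, 4 of the 7 genes were higher in trained mice and none was lower, where 3.53% of 13585 genes were higher and 5.23% were called in either direction. The 4 were Grik4, Nectin3, Cdh24 and Cpne4, and in each of them every trained library lay above every untrained one, as in 12.9% of all genes. The median log2 difference of the 7 genes was 0.37, beside 0.00 for all genes.

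Nectin3 had the smallest adjusted p in CA1. Its values were 251, 262 and 257 in the untrained and 465, 418 and 498 in the trained libraries, so the groups were separated by a wide gap. The ratio of means was 1.79, and the log2 difference 0.84 (standard error 0.092, limma adjusted p = 2.45e-05).

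Cdh24 showed the largest difference of the 7 genes in CA1. It rose from 52.1, 47.3 and 46.3 in untrained to 113, 103 and 93.2 in trained libraries. The groups did not overlap, the ratio of means was 2.12, and the log2 difference was 1.05 (standard error 0.176, limma adjusted p = 0.00118).

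Grik4 had values of 268, 292 and 304 in untrained and 431, 403 and 438 in trained CA1. The spread within either group was small beside the gap, with means of 288 ± 18.3 and 424 ± 18.5 (SD, n = 3 each). The log2 difference was 0.56 (standard error 0.090, limma adjusted p = 0.000828).

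Cpne4 had values of 967, 1003 and 900 in untrained and 1218, 1221 and 1279 in trained CA1. This log2 difference of 0.37 was the smallest of the 4 (limma adjusted p = 0.00125, standard error 0.063), with no shared range. Each of these 4 calls held when any 1 CA1 library was left out. Without trained replicates 1 and 3, which held Ddx3y beside Xist, 1 trained library remained, assumed to vary like the untrained ones. The differences were then 0.70 for Nectin3, which passed the test, and 1.05 for Cdh24, 0.48 for Grik4 and 0.35 for Cpne4, which did not (limma adjusted p = 0.0265, 0.0832, 0.152 and 0.152).

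Dkk3, Nnat and St18 did not pass the test in CA1. Dkk3 ranged from 1776 to 2370 in untrained and from 2127 to 2332 in trained libraries, a log2 difference of 0.15 (95% confidence interval -0.06 to 0.36, limma adjusted p = 0.428). Leaving out 1 CA1 library at a time gave Dkk3 differences from 0.06 to 0.27, the largest without untrained replicate 3 (limma adjusted p = 0.00503). Nnat had 311, 248 and 278 in untrained and 462, 321 and 280 in trained libraries, with trained replicate 1 apart from the others. St18 had overlapping groups, 604 to 784 in untrained and 617 to 719 in trained CA1 (log2 difference -0.07, limma adjusted p = 0.758).

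Other transcripts moved in the same CA1 libraries. The summed value of the 8 CA1 pyramidal markers ranged from 4007 to 6170 in untrained and from 2222 to 2639 in trained CA1, a list in which 8 of 8 genes had a negative difference and 2 passed the test. Of these, Fibcd1, a membrane receptor that marks dorsal CA1, fell by 1.32 on the log2 scale (limma adjusted p = 0.0139). Its level in trained CA1, 409 to 504, was close to that in untrained DG, 406 to 578. Spock1, another CA3 marker, rose by 0.68 (limma adjusted p = 0.000307), whereas Coch from the same list fell from values of 32.8 to 43.0 to values of 11.5 to 13.9 (limma adjusted p = 0.00467). Aqp4, the astrocyte water channel, was the 1 of 6 astrocyte markers called, and fell by 0.35 (limma adjusted p = 0.0015), in a list with a median difference of -0.02 and 2 of 6 positive. All 10 oligodendrocyte markers had negative differences (median -0.25), and 0 passed the test. Of 10 dentate granule cell markers 9 had positive differences (median 0.18, beside 0.00 for all genes). The 1 that was called was Glis3, which rose by 0.43 (limma adjusted p = 0.00129). Of 4 markers of excitatory neurons Slc17a7, Camk2a and Nrgn rose, by 0.29, 0.18 and 0.50 (limma adjusted p = 0.0029, 0.00492 and 0.0157). All 3 trained CA1 libraries also had many genes at 0 (8323 to 9758) and all 3 untrained ones few (3124 to 5425), so that number and training cannot be told apart in CA1. The part of the marker changes in the rise of the 4 genes was not tested.

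**Figure D3:**
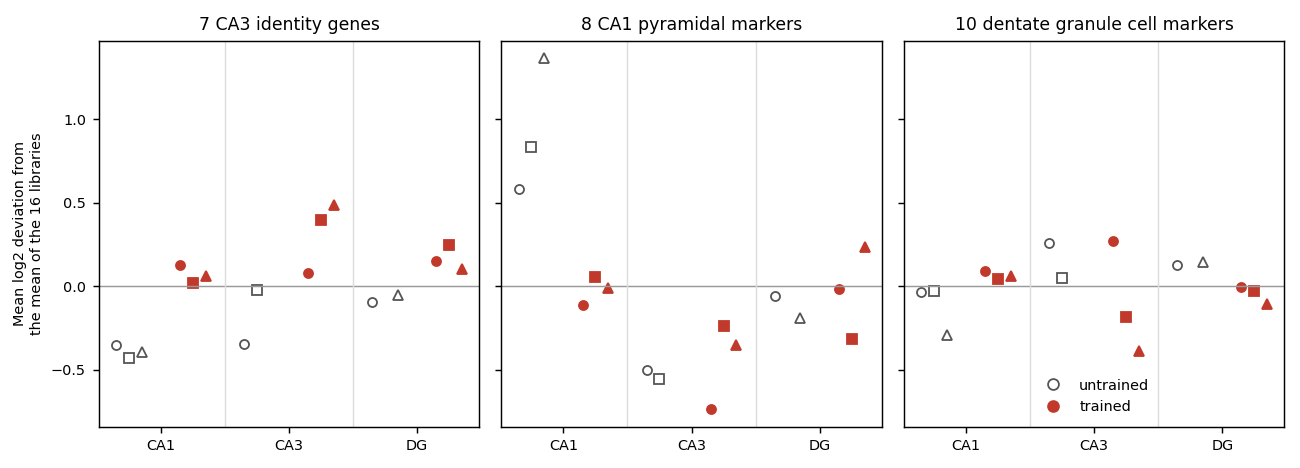
Each point is one library, and the vertical axis is the mean log2 deviation of a gene list from its mean over the 16 libraries, for the 7 genes, 8 CA1 pyramidal markers and 10 dentate granule cell markers. Open grey symbols are untrained, filled red symbols trained, and circles, squares and triangles are replicates 1, 2 and 3. In CA1 the 7 genes lie lower in untrained (-0.43 to -0.35) than in trained libraries (0.02 to 0.13), and the CA1 markers lie higher (0.58 to 1.37 against -0.11 to 0.06).

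In CA3, 1 of the 7 genes passed the test, where 0.737% of 13845 genes were higher in trained mice and 0.852% were called in either direction. This was Cdh24, with values of 54.6 and 51.3 in untrained and 129, 112 and 114 in trained libraries. The log2 difference was 1.13 (standard error 0.146, limma adjusted p = 0.00858), a ratio of means of 2.23, close to that in CA1. The size was stable but the call was not: leaving out untrained replicate 1 gave a difference of 1.17 (limma adjusted p = 0.0618), leaving out untrained replicate 2 gave 1.08 (0.059), and leaving out trained replicate 2 gave 1.17 (0.0768).

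Grik4, Nectin3 and Dkk3 also had every trained CA3 library above both untrained ones, as did 17.2% of all genes, without passing the test. For Grik4 the untrained values were 314 and 432 and the trained values 503, 597 and 621 (log2 difference 0.63, standard error 0.144, limma adjusted p = 0.0872). Nectin3 had 285 and 443 in untrained against 456, 566 and 608 in trained CA3 (0.60, limma adjusted p = 0.258), so trained replicate 1 was only just above untrained replicate 2. Dkk3 had 1220 and 1765 against 1998, 2363 and 2718, the largest difference of Dkk3 in any subregion (0.67, limma adjusted p = 0.2). In all 3 genes untrained replicate 1, which held Xist beside Y-linked transcripts, was the lowest CA3 library. Without it the differences were 0.40 for Grik4, 0.28 for Nectin3 and 0.41 for Dkk3 (limma adjusted p = 0.421, 0.715 and 0.536). Grik4 passed the test without trained replicate 1 (0.72, limma adjusted p = 0.0219) and in the fit that takes its spread from all 16 libraries (0.63, limma adjusted p = 0.00888). Without untrained replicate 1 and trained replicate 3 together the differences were 1.19 for Cdh24, which passed the test, 0.34 for Grik4, 0.20 for Nectin3 and 0.30 for Dkk3 (limma adjusted p = 0.00778, 0.36, 0.787 and 0.442). The 1 untrained library left in fits without the other was assumed to vary like the trained ones.

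Nnat was split within trained CA3, with 268 in replicate 1 and 688 and 746 in replicates 2 and 3, beside 268 and 367 in untrained mice. Its log2 difference of 0.72 had a 95% confidence interval of -1.12 to 2.55 (limma adjusted p = 0.643). Without trained replicate 1 the difference was 1.19 and passed the test (limma adjusted p = 0.00396). St18 was the only gene of the 7 with every trained CA3 library below both untrained ones (837 and 798 against 656, 705 and 696), as in 16.7% of all genes, and its difference of -0.25 did not pass the test (limma adjusted p = 0.153). The mean of Cpne4 was 1418 ± 227 in untrained (SD, n = 2) and 1448 ± 149 in trained CA3 (SD, n = 3), and the log2 difference was 0.03 (95% confidence interval -0.22 to 0.29). Without untrained replicate 1 the difference of Cpne4 turned to -0.13, and those of Nnat and St18 were 0.49 and -0.22 (limma adjusted p = 0.833, 0.931 and 0.618).

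Among the marker lists in CA3, Ttr and Clic6 of the choroid plexus fell by 3.29 and 2.55 on the log2 scale in trained mice (limma adjusted p = 7.19e-06 and 0.0343), and the sum of the 7 choroid plexus and ependyma markers was 853 to 1175 in untrained against 261 to 358 in trained CA3. The interneuron peptide Sst was higher by 0.82 (limma adjusted p = 0.01). Dentate granule cell markers had sums of 10766 to 12860 in untrained and 7611 to 11498 in trained CA3. Of the 10, 1 had a positive difference (median -0.29) and 0 passed the test. Other lists without a call were one-sided in CA3. All 10 oligodendrocyte markers had positive differences (median 0.23, beside -0.01 for all genes), as did all 4 markers of excitatory neurons (median 0.36). All 5 mossy cell markers (median -0.51) and all 4 thalamic neuron markers (median -0.32) had negative ones. Their part in the differences of the 7 genes was not tested.

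In DG, 1 of the 7 genes passed the test, where 1.74% of 13932 genes were higher and 3.4% were called in either direction. Dkk3 had values of 1829 and 2058 in untrained and 2284, 2613 and 2377 in trained libraries. The log2 difference was 0.32 (standard error 0.074, limma adjusted p = 0.027), a ratio of means of 1.25. This call was lost when untrained replicate 1 or any trained DG library was left out (limma adjusted p of 0.0584 to 0.16), and in the fit that takes its spread from all 16 libraries (0.327).

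Nnat also separated the DG groups, with 395 and 232 in untrained and 502, 546 and 617 in trained libraries, as in 17.4% of all genes. The log2 difference of 0.86 did not pass the test (standard error 0.233, limma adjusted p = 0.125), and was 1.24 without untrained replicate 1 and 0.48 without untrained replicate 3. Either fit left 1 untrained library, assumed to vary like the trained ones, and under that assumption Nnat passed the test in both. Cpne4 went the other way, with 1344 and 1545 in untrained and 1271, 1292 and 1204 in trained DG, so every trained library was below both untrained ones (as in 18.2% of all genes, log2 difference -0.20, limma adjusted p = 0.159). Without untrained replicate 1 the difference of Cpne4 was -0.30 (limma adjusted p = 0.0349, under the same assumption).

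Grik4, Nectin3 and Cdh24, the genes with the largest differences in CA1, had overlapping groups in DG. Grik4 had 476 and 374 in untrained and 431, 522 and 445 in trained libraries (0.14, limma adjusted p = 0.565). Nectin3 had 341 and 451 against 521, 576 and 448 (0.39, limma adjusted p = 0.119), and Cdh24 50.7 and 70.7 against 82.7, 85.3 and 61.0 (0.32, limma adjusted p = 0.463). Trained DG replicate 3 was the lowest trained library for both adhesion genes. Without untrained replicate 3 the difference of Nectin3 was 0.59 (limma adjusted p = 0.00567, with the 1 untrained library left assumed to vary like the trained ones). St18 had a difference of -0.14 (limma adjusted p = 0.397). Without trained replicate 3, which held both Xist and Y-linked transcripts, the differences were 0.17 for Grik4, 0.48 for Nectin3, 0.47 for Cdh24, -0.17 for Cpne4, 0.33 for Dkk3, 0.79 for Nnat and -0.16 for St18, and none passed the test (limma adjusted p of 0.0987 to 0.623).

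Markers of other cell types moved in the same DG libraries. Prox1 fell by 0.31 and Stxbp6, another granule cell marker, by 0.44 (limma adjusted p = 0.00969 and 0.00446), and the sum of the 10 dentate markers was 11451 to 11595 in untrained and 9119 to 9701 in trained DG. All 7 CA2 markers had negative differences (median -0.34, beside 0.00 for all genes) and 2 were called, Pcp4, a calmodulin-binding peptide, at -0.38 and Map3k15, a kinase, at -1.68 (limma adjusted p = 0.0293 and 0.0404). Of 4 thalamic neuron markers, with a median of -0.47, 1 was called, Prkcd, which had 277 and 284 in untrained and 178 to 189 in trained DG (limma adjusted p = 0.0144). Of 5 mossy cell markers 0 and of 10 oligodendrocyte markers 1 had a positive difference in DG (median -0.22 in each list), without a call. Both untrained DG libraries had many genes at 0 and all trained ones few, the reverse of CA1. The part of these measures in the differences of the 7 genes was not tested.

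**Figure D4:**
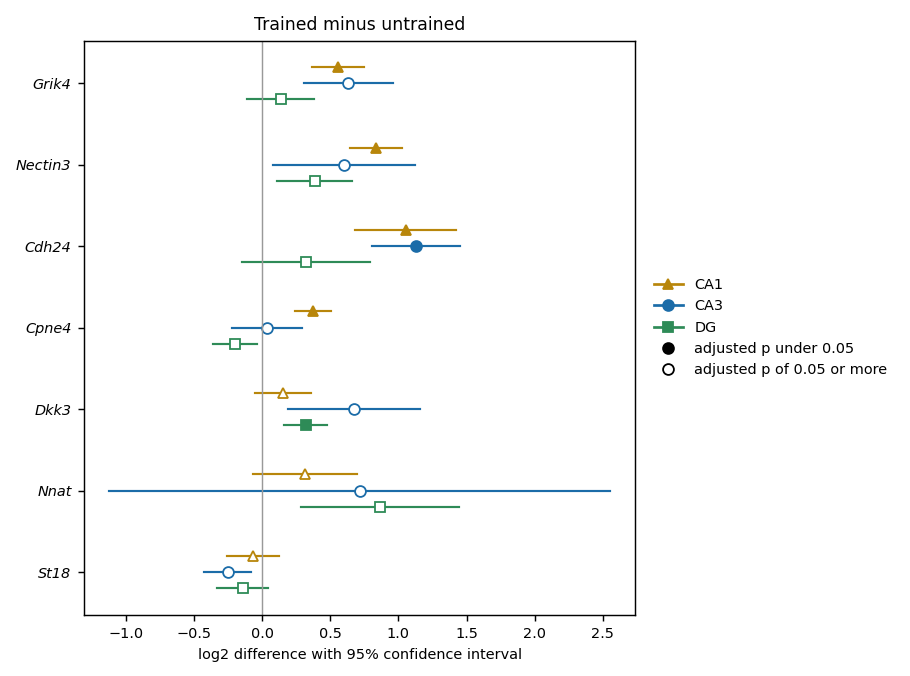
Points are log2 differences, trained minus untrained, of the 7 genes in each subregion with bars for the 95% confidence interval from limma, and filled points passed an adjusted p of 0.05. Filled points are Grik4, Nectin3, Cdh24 and Cpne4 in CA1, Cdh24 in CA3 and Dkk3 in DG. The bar of Nnat in CA3 runs from -1.12 to 2.55.

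Whether the training difference itself varied between subregions was tested in one fit of 6 groups. For CA3 minus CA1 and for CA3 minus DG, 0 of the 7 genes passed the test, where 0.0273% and 0.13% of all genes did (985 and 1716 had an unadjusted p under 0.05). For CA1 minus DG, a comparison added after the values were seen, 1 of 7 passed, where 2.75% of all genes did. This was Cpne4, which was higher in trained CA1 and had lower values in trained DG (difference of the differences 0.57, standard error 0.123, limma adjusted p = 0.0164). The call did not hold without untrained replicate 3, trained replicate 2 or trained replicate 3 (limma adjusted p = 0.101, 0.0805 and 0.0522, with values of 0.43, 0.60 and 0.52). Cdh24, Nectin3 and Grik4 had differences of 0.73, 0.45 and 0.42 in the same direction (limma adjusted p = 0.116, 0.328 and 0.194). For Cdh24 and Grik4 the CA3 and CA1 training differences were close (0.076 and 0.075 apart), with 95% confidence intervals of -0.44 to 0.60 and -0.28 to 0.43, and without untrained CA3 replicate 1 the CA3 minus CA1 values were 0.12 and -0.15. For Nectin3 the CA3 minus CA1 value was -0.24 (95% confidence interval -0.73 to 0.26, limma adjusted p = 0.886). Without untrained CA3 replicate 1 and trained DG replicate 3 the CA1 minus DG difference of Cpne4 was 0.54 (limma adjusted p = 0.0389), and those of Cdh24 and Grik4 were 0.58 and 0.39. Without all 5 libraries that held both kinds of transcript, Cpne4 differed by 0.52 and did not pass the test (limma adjusted p = 0.123).

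Over all subregions together, 4 of the 7 genes were higher in trained mice, where 6.28% of 14670 genes were higher and 10.3% were called in either direction. Cdh24 had the largest log2 difference, 0.85 (limma adjusted p = 0.000239, standard error 0.123), with a median of 51.3 and a range of 46.3 to 70.7 in 7 untrained libraries and a median of 103 and a range of 61.0 to 129 in 9 trained ones. Nectin3 differed by 0.62 (standard error 0.101, limma adjusted p = 0.00114), from a median of 285 (251 to 451) to a median of 498 (418 to 608). Grik4 differed by 0.45 (standard error 0.085, limma adjusted p = 0.0022), from 314 (268 to 476) to 445 (403 to 621). Dkk3 differed by 0.36 (limma adjusted p = 0.0405), and this call was lost without any 1 animal except untrained replicate 3. Without untrained CA3 replicate 1 and trained DG replicate 3, Cdh24, Nectin3 and Grik4 differed by 0.90, 0.60 and 0.40 and passed the test, and Dkk3 differed by 0.27 and did not (limma adjusted p = 0.000172, 0.000847, 0.00367 and 0.0503). Without all 5 libraries that held both kinds of transcript, Cdh24 and Nectin3 passed at 0.85 and 0.47 (limma adjusted p = 0.00638 and 0.0149), and Grik4 and Dkk3 did not, at 0.31 and 0.27 (limma adjusted p = 0.0658 and 0.0733). When the number of genes at 0 entered the fit as a term of 2 levels, Dkk3 again did not pass the test (0.38, limma adjusted p = 0.051). None of the 7 genes had fully separated groups over all libraries, and 0.62% of all genes had every trained library above every untrained one. Nnat (0.61, limma adjusted p = 0.104), Cpne4 (0.09, 0.491) and St18 (-0.15, 0.0879) did not pass the test. With the sex-linked transcripts as a covariate, 0 of the 7 genes and 0 of all genes were called by limma. An unadjusted p under 0.05 was found for 1702 genes. The estimates for Cdh24, Nectin3, Grik4 and Dkk3 were then 0.74, 0.90, 0.83 and 0.83, with standard errors of 0.300, 0.235, 0.180 and 0.205. As this covariate follows training within every subregion, the fit cannot separate training from the sex-linked transcripts.

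Genes related to the 7 were examined by family, from lists chosen with earlier results of these data known. Of all genes, 3.53% were called higher and 1.7% lower in CA1, 6.28% were called higher in the combined comparison, and 10.3% there and 3.4% in DG in either direction. Of 6 kainate receptor and auxiliary subunits, 2 rose in CA1: Neto1, an auxiliary subunit that shapes kainate receptor gating, by 0.54 (limma adjusted p = 0.000112), and the subunit Grik5 by 0.33 (limma adjusted p = 0.00509). Grik1, Grik2, Grik3 and Neto2 did not pass the test. Among 4 nectin and afadin genes 0 passed in CA1, and Nectin1 rose in the combined comparison by 0.25 (limma adjusted p = 0.00944). Of 11 other type II cadherins tested in CA1, 6 had positive differences (median 0.02, beside 0.00 for all genes), 0 were called higher and 2 were called lower. These were Cdh6 and Cdh10, with differences of -0.99 and -0.46 (limma adjusted p = 0.00317 and 0.0313).

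Among 8 other copines, Cpne6 rose in CA1 by 0.28 (limma adjusted p = 0.00656) and Cpne8 fell by 1.10 (limma adjusted p = 0.00169). Cpne5 and Cpne6 rose in the combined comparison, by 0.35 and 0.29 (limma adjusted p = 0.00918 and 0.00102). Of the Dickkopf genes and Wnt coreceptors, 3 of 8 passed the filter in CA1 (Kremen1, Lrp5 and Lrp6) and none was called there, in CA3, in DG or in the combined comparison. Among 9 imprinted genes and Blcap, the gene that surrounds Nnat, Ndn rose in the combined comparison by 0.21 (limma adjusted p = 0.0229), and Blcap had a difference of 0.12 in DG (limma adjusted p = 0.503), where Nnat had its largest difference. Myt1l, a relative of St18, fell by 0.29 in DG and by 0.18 in the combined comparison (limma adjusted p = 0.0166 and 0.0018), and Myt1 did not pass the test.

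Across the 16 libraries the 7 genes did not vary as one set. Pearson correlations of their log2 values were highest between Grik4 and Nectin3 (0.892) and lowest between Dkk3 and St18 (-0.608). Cpne4 and Dkk3 were almost uncorrelated (0.084), and St18 had a positive correlation with Cpne4 alone (0.348). The genes most like the mean of the 7, among genes of mean value at least 50, were Neto1 (0.968), Slit2 (0.965), Snap25 (0.964), Nrip3 (0.960) and Elavl2 (0.960). For single genes the most similar were Spock1 and Slc25a22 for Grik4 (0.946 and 0.944), Homer3 and Bok for Nectin3 (0.964 and 0.960), and Bsn and Cntnap1 for Cdh24 (0.943 and 0.937). Cdk14 and Apc were most like Cpne4 (0.945 and 0.925), Plxna1 was among those most like Dkk3 (0.944), Hspa4 and Crtac1 were most like Nnat (0.924 and 0.912), and Lrrn3 and Rnpc3 were most like St18 (0.832 and 0.803). These correlations over 16 libraries share animals, training and normalization and are given without a test.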

How the data were processed

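Microdissected DG, CA3 and CA1 tissue gave 16 libraries. Per the labels and the study's methods, RNA with a RIN above 7 was sequenced on a NovaSeq, aligned with STAR 2.7.10a and quantified with Salmon 1.2.0; bcl2fastq 2.20, FastQC, Trim Galore and DESeq2 are named in the submitters' processing notes. The labels give the genome build as GRCm38. The deposited signal is an estimated count that the authors normalized between libraries, by a method not given in the sources used here. Between 13.4% and 61.3% of low values per library lay within 0.05 of whole multiples of a common step, so whole reads were not recovered and depth is unknown. Precision is therefore given as the spread between libraries, and no interval for counting error is given.

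Groups came from the labels. The values were compared with limma 3.58.1 in R 4.3.3 on log2(value + 2), in which the variance followed a trend on the mean, hyperparameters were estimated robustly, and p-values were adjusted by Benjamini-Hochberg over all genes tested. Genes needed a value of at least 10 in at least 3 libraries (CA1) or 2 libraries (other fits). The added 2 makes differences of genes with low values appear smaller. Of 24972 rows, 4 with a repeated symbol were left out. Subregions were compared with the animal as a block, taken from the shared sample names. Libraries with a shared name had residual correlations of -0.108 to 0.092. Xist was 26.1, 10587 and 25.5 in untrained replicate 1 of CA1, CA3 and DG. That each shared name marks 1 animal was therefore not established. Training was compared within a subregion without a block, and over all libraries with the subregion as a term. The latter and the fit of 6 groups treat libraries of one animal as independent. P-values rest on the spread between these libraries, with the variance of each gene drawn toward that of genes with a similar mean. The method was tested on simulated data.

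The 7 genes and all lists were chosen with earlier results of these data known. Named beside them are list genes that passed the test, and the genes with the highest Pearson correlation to the mean of the 7 (5 genes) or to each (2 genes). A few genes that these rules name are not reported here. The settings varied were the scaling (median-of-ratios, upper-quartile), a pseudocount of 0.5, no low-value filter, no robust estimation, with or without the block, all libraries in one fit, a sex-linked covariate and leaving out libraries or animals. A term separating libraries by their number of genes at 0, leaving out untrained CA3 replicate 1 with trained DG replicate 3, and leaving out all 5 libraries with Xist of at least 1000 and Ddx3y of at least 50, were added after seeing the data. The study's spatial transcriptomics and RT-qPCR data were not used.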

Additional observations from a re-analysis of the deposited data

Results flagged for a closer look

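Cdh24 in untrained DG replicate 3 had a value of 70.7, apart from the other 6 untrained libraries (46.3 to 54.6), with a gap of 0.614 of the whole range on the log2 scale. Over the 7 genes together, 35 groups of values were tested for a library standing apart, and chance flags about 1 in 20 such groups. The training difference of Cpne4 differed between CA1 and DG by 0.57 on the log2 scale (limma adjusted p = 0.0164 for the difference itself), a comparison added after the values were seen.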

How the results depend on the processing

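Rescaling, the pseudocount, the low-value filter and robust estimation changed no number of the 7 genes called by more than 1.5 times. Without the low-value filter Dkk3 lost its call over all subregions (limma adjusted p = 0.0583). Without robust estimation Dkk3 lost its call in DG (0.0519) and Nnat passed in DG and over all subregions. Leaving the animal out of the subregion fits called 0 of the 7 genes, as with it. Replicate numbers did not pair trained with untrained libraries (residual correlations from -0.180 to 0.119). With the replicate number as a block, the number called went from 1 to 5 in CA3 (1170 genes in all against 118), where Cpne4 turned to -0.040. In DG it went from 1 to 0 (496 genes in all against 473). The number of the 7 genes called stayed within 1.5 times in CA1, over all subregions and for the differences between subregions. In one fit of 16 libraries, 2 were called in CA3 (413 of all genes) and 0 in DG (491 of all genes). The sex-linked covariate left 0 over all subregions. A term separating libraries by their number of genes at 0 was chosen after seeing the data. It gave 2 for CA3 against CA1 and 1 for CA1 against DG (146 and 421 of all genes, against 49 and 264). Over all subregions it gave 3 (1789 of all genes, against 1516), where Dkk3 lost its call (0.051). Without untrained CA3 replicate 1 and trained DG replicate 3, also chosen afterwards, 1 was called for CA3 against CA1 and 1 for CA1 against DG (40 and 200 of all genes). Nnat in CA3 against DG was then 0.124, and Dkk3 in CA3 against CA1 was 0.000 to 3 decimals. The CA3 minus DG training difference of Nectin3 was -0.199, and that of CA3 minus CA1 for Grik4 was -0.153. Leaving out all 5 libraries with both Xist and Ddx3y was also chosen afterwards. It left 1 library in a training group of CA1 and of CA3, so no count is given for training in these. The number called was then 2 for CA3 against CA1 (22 of all genes, against 49) and 3 for CA1 against DG (191 against 264). It was 0 for training in DG (100 against 473) and 2 over all subregions (323 against 1516). Values that changed sign there were -0.010 (Cdh24) and 0.001 (Dkk3) for CA1 against DG, -0.203 in CA3 and -0.017 over all subregions for Cpne4, -0.141 for Grik4 in the CA3 minus CA1 training difference, and -0.285 (Nectin3), -0.035 (Cpne4) and -0.033 (Dkk3) in that of CA3 minus DG. The number of all genes called, which sets the background shares, moved more: without the low-value filter it was 1879 against 710 in CA1, 162 against 264 for CA1 against DG and 2039 against 404 for the CA1 minus DG training difference, without robust estimation 52 against 118 in CA3 and 308 against 473 in DG, in one fit 413 against 118 in CA3, and without the animal as a block 31 against 49 for CA3 against CA1. Leaving out 1 library or animal moved it further: from 7 (without trained CA3 replicate 2) to 680 (without trained CA3 replicate 1) in CA3, from 28 (without trained DG replicate 2) to 1585 (without untrained DG replicate 3) in DG, from 329 to 865 in CA1, from 456 (without untrained replicate 1) to 1872 over all subregions, from 0 to 66 for CA3 against CA1 and from 18 to 244 for CA1 against DG, so the background shares are themselves uncertain. For the training differences between subregions, leaving out 1 animal gave 0 to 69 genes for CA3 minus CA1, against 4. It gave 0 to 72 for CA3 minus DG, against 19, and as few as 24 for CA1 minus DG, against 404. The cause was not tested for any of these changes.

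When 1 animal or library was left out, the number of the 7 genes called ranged from 0 to 1 for CA3 against CA1, for CA1 against DG and for the CA1 minus DG training difference, and from 0 to 3 for training in CA3 and in DG. Differences that changed sign ranged, for CA3 against CA1, from -0.209 to 0.015 for Dkk3. For CA3 against DG they ranged from -0.014 to 0.293 (Grik4), -0.143 to 0.056 (Nectin3), -0.236 to 0.001 (Dkk3), -0.222 to 0.131 (Nnat) and -0.012 to 0.090 (St18), and for CA1 against DG from -0.071 to 0.023 (Dkk3). The training difference ranged from -0.159 to 0.029 for St18 in CA1, from -0.130 to 0.198 for Cpne4 in CA3 and from -0.037 to 0.311 for Grik4 in DG. The CA3 minus CA1 training difference ranged from -0.153 to 0.292 (Grik4), -0.553 to 0.068 (Nectin3) and -0.015 to 1.080 (Nnat), that of CA3 minus DG from -0.102 to 0.533 (Nectin3), -0.753 to 0.255 (Nnat) and -0.202 to 0.017 (St18), and that of CA1 minus DG from -0.108 to 0.264 for St18. With 2 or 3 libraries a group and unknown depth, a missed test does not show equal expression.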
